A study of Drosophila melanogaster with 2 samples.

Results

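Of the 3469 reproducible toe peaks on the genome build dm6, 1253 (36.1%) had a summit no more than 500 bp from start sites of exactly 1 protein-coding gene and of no other gene of any biotype. They are called single-gene promoter peaks here, and they were chosen by position alone. Start sites were those of Ensembl's BDGP6 annotation without its records of transposable elements. The single-gene promoter peaks made up 54.7% of the 2289 peaks with a summit within 500 bp of any start site. The other promoter peaks comprised 964 (27.8% of all peaks) near start sites of several genes and 72 (2.08%) near 1 non-coding gene alone. A further 1180 peaks (34.0%) had no start site within 500 bp. The 1253 single-gene promoter peaks belonged to 1108 genes. Of the 13400 protein-coding genes with any sequence open to such a summit, 8.27% therefore carried one.

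The study is a chromatin immunoprecipitation with sequencing (ChIP-seq) of the transcription factor toe in whole adult male Drosophila melanogaster. All flies belonged to a transgenic line in which toe carries GFP at its C-terminus, and the tag was recovered with an antibody against GFP after sonication. There was 1 group with 2 biological replicates, numbered 2 and 3, and the age of the flies is given as unknown. The control experiment that the labels name was not analysed here, and the read depth of the replicates is unknown. Chromatin came from whole animals, so binding in a few cells and weak binding in many cells cannot be told apart. The labels do not say if the transgene adds copies of toe.

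The gene toe (twin of eyegone) and its neighbour eyg (eyegone) encode Pax-family transcription factors with a homeodomain, known from eye and imaginal disc development and described as repressors. A promoter is the stretch around a transcription start site where RNA polymerase II and its general factors assemble. In Drosophila many housekeeping promoters carry short words such as the DNA replication-related element (DRE) or core promoter motif 1, bound by M1BP, whereas many regulated promoters carry GAGA repeats, a TATA box or an initiator. Neighbouring genes in this compact genome often start back to back, so that a peak between them cannot be given to either gene. A single-gene promoter peak can be given a gene and a direction.

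Each sequence here is 101 bp centred on a summit, written 5′ to 3′ along the gene's strand and taken from the RefSeq copy of the dm6 assembly. Capitals mark the words searched for, on either strand. The first 3 are the highest single-gene promoter peaks by the authors' deposited signal: CG14100 (chr3L:19590573-19590673, minus strand), Ugalt (chrX:2703830-2703930, minus strand) and CG31145 (chr3R:23669783-23669883, minus strand). The windows of eEF1gamma (chr3R:29220045-29220145, plus strand) and Rnp4F (chrX:5322689-5322789, minus strand) have the highest signal, among windows eligible for printing, with DRE and with motif 1. CG7328 (chr3L:20140784-20140884, minus strand) is the highest such window with an E-box, CG32982 (chr2L:9125566-9125666, plus strand) the highest with ACAGTGG and Pi3K21B (chr2L:297761-297861, plus strand) the highest with AGTGTTG. The last pair are the promoters of eyg (chr3L:12468133-12468233, minus strand) and of toe itself (chr3L:12432768-12432868, minus strand).
CG14100: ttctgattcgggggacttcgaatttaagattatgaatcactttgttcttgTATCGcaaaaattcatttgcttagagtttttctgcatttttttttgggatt
Ugalt: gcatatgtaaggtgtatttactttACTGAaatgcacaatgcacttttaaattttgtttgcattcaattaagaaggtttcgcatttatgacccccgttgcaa
CG31145: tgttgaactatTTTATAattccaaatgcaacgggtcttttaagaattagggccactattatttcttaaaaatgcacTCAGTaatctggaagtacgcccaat
eEF1gamma: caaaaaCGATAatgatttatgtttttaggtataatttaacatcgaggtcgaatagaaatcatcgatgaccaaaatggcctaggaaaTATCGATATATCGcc
Rnp4F: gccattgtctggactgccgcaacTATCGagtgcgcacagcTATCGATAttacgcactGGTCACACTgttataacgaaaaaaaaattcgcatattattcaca
CG7328: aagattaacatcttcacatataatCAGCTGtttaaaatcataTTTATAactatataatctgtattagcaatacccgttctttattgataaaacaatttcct
CG32982: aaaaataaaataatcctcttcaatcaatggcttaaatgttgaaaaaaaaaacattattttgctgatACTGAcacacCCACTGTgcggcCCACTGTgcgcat
Pi3K21B: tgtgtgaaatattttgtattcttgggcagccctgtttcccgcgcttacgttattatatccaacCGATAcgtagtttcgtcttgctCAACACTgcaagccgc
eyg: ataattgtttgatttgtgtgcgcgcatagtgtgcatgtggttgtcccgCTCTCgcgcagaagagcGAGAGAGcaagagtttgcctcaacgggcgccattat
toe: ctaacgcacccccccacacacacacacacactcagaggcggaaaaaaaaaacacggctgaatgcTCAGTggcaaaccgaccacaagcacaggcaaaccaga

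The CG14100 window, at the highest of all 3469 peaks, held the CGATA core alone, in its complementary form TATCG next to the summit. Ugalt and toe held the initiator word alone, and CG31145 held an initiator word and a TATA box. The eEF1gamma window held DRE and separate CGATA cores, and Rnp4F held DRE, motif 1 and a further CGATA core. Pi3K21B held AGTGTTG in complementary form as well as a CGATA core, and CG32982 held ACAGTGG at 2 places in its complementary form. The eyg window held GAGA words on both strands.

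Summits lay mostly upstream of the nearest start site, which at an internal start site can still be inside the gene. The median distance from the nearest start site of the gene was -109 bp (quartiles -217 and -27 bp, negative values upstream). Of the 1253 summits, 1009 (80.5%, 95% Wilson interval 78.2 to 82.6%) were upstream, 243 (19.4%, 17.3 to 21.7%) downstream and 1 at the start site. The sequence that could have held a single-gene summit was split the other way. It was 44.8% upstream and 55.1% downstream, because removing neighbouring start sites removes more upstream sequence.

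The band from more than 50 up to 250 bp upstream held 605 summits (48.3%, 45.5 to 51.1%), against 18.8% of the available sequence. Within 50 bp of the start site on either side lay 242 summits (19.3%, 17.2 to 21.6%), against 10.7% of the available sequence. Beyond 250 bp on either side lay 301 (24.0%, 21.7 to 26.5%), against 49.0%. Per available sequence, summits were densest between 100 and 50 bp upstream, with 193 peaks or 300.4 per Mb. The lowest density was 9.26 per Mb, between 450 and 500 bp downstream. The mean over the whole window was 97.7 per Mb.

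**Figure D1:**
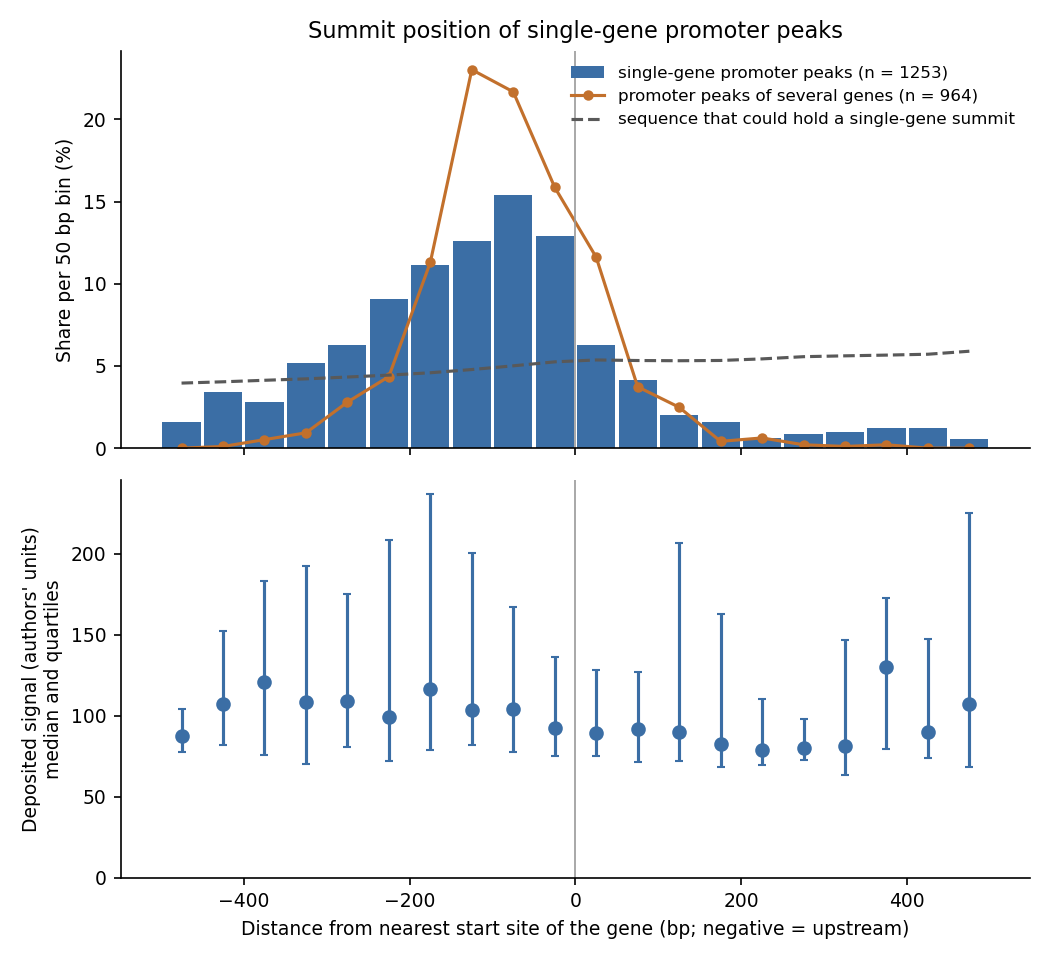
Top, share of summits in 50 bp bins of distance from the nearest start site of the gene (bp, negative upstream), for 1253 single-gene promoter peaks (bars), 964 promoter peaks of several genes (circles) and the sequence that could hold a single-gene summit (dashed line). Bottom, median and quartiles of the authors' deposited signal of the single-gene promoter peaks in each bin. The bars stand above the dashed line from 350 bp upstream to 50 bp downstream and below it in the bins farther downstream.

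The upstream position was also found with each replicate's own summits. In the region of replicate 2 that overlapped each peak, the median was -112.5 bp and 19.9% of 1242 summits were downstream. In replicate 3 the median was -113 bp and 20% of 1240 were downstream. Over the 1229 peaks with a region in both lists, the summits of the replicates lay a median of 33 bp apart (upper quartile 70 bp), and 1135 (92.4%) were on the same side of the start site in both. Neighbouring peaks can be matched to the same replicate region, so these counts are not of separate regions throughout.

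The number of start sites near the summit went with its position. The 1013 peaks with 1 start site within 500 bp had a median of -130 bp and 16.2% downstream (14.05 to 18.6%). The 240 peaks with several start sites of the same gene within 500 bp had a median of -37.5 bp and 32.9% downstream (27.3 to 39.1%). For 125 peaks (9.98%) the gene had start sites on both sides of the summit, and without these the downstream share was 15.4% (13.4 to 17.7%). With several start sites the nearest is closer by construction, and which of them is in use in these flies was not tested.

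For 842 peaks (67.2%) the nearest start site was the 5′-most of the gene, and for 411 (32.8%) it was an internal one. Internal start sites had a median summit position of -139 bp, against -100 bp at the 5′-most ones. The downstream shares were 22.9% (19.1 to 27.2%) at internal start sites and 17.7% (15.3 to 20.4%) at the 5′-most, intervals that overlap. Median signals were 99.8 and 102 in that order. In the annotation, 694 summits (55.4%) lay outside the transcribed body of their gene, 327 (26.1%) in an intron of it, 226 (18.0%) in a 5′ UTR and 6 (0.479%) in a coding exon. None of the 1253 lay in a 3′ UTR, which allows a share of up to 0.239% (3 counts of the total). The rule looks at start sites only, and 120 summits (9.58%) lay inside the body of another protein-coding gene.

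Compared with the single-gene promoter peaks, peaks near several genes lay closer to a start site. Beyond 250 bp from the nearest start site were 24.0% of single-gene summits and 4.88% (3.69 to 6.42%) of several-gene summits. The median position was -109 bp in single-gene peaks and -86 bp in several-gene peaks. The downstream share was 19.4% in both, with intervals of 17.3 to 21.7% and 17.03 to 22.01%. A summit with several genes nearby has more start sites to be near to, so the difference in distance follows in part from the definition, and the difference was not tested.

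The signal of single-gene promoter peaks ran from 58.3 to 3277.7 with a median of 101 (quartiles 75.4 and 166). The deposited signal is the authors' own value, on a scale the files do not name, and it was compared within 1 list only. Peaks near several genes had a median of 146 (89.5 to 234), peaks near a non-coding gene alone 96.3 (66.4 to 153) and peaks with no start site nearby 85.3 (68.8 to 125). Among the 346 peaks with the highest signal, 1 in 10 of all, were 115 single-gene peaks (9.18% of them, 7.70 to 10.9%) and 168 several-gene peaks (17.4%, 15.2 to 19.95%). Single-gene peaks took 30.5 to 42.1% of each of 10 equal bins of the list by signal. The share of several-gene peaks was 48.6% in the bin with the highest signal and 14.99% in the bin with the lowest. The single-gene promoter peaks had a q-value under 0.05 in 1111 cases (88.7%), close to the 86.8% of all reproducible peaks. The share was 92.1% in several-gene peaks and 80.7% in peaks with no start site nearby.

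**Figure D2:**
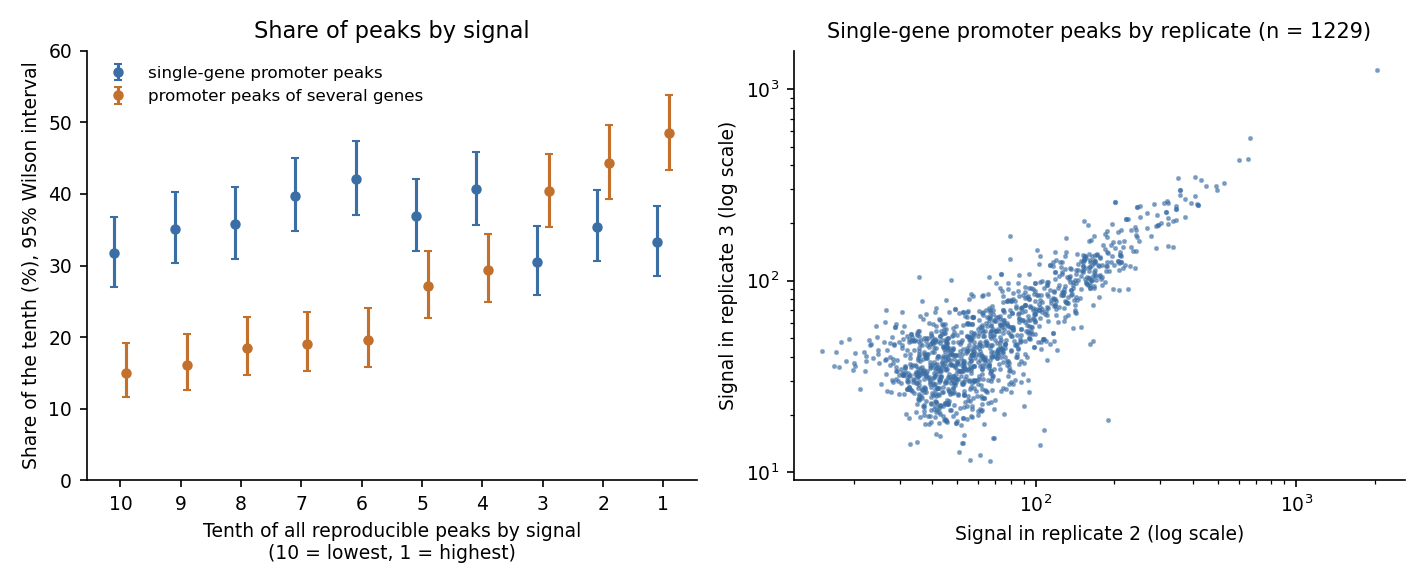
Left, share of each of 10 equal bins of the 3469 reproducible peaks, ranked by deposited signal, that was single-gene promoter peaks or promoter peaks of several genes (points, with 95% Wilson intervals as bars). Right, signal of the overlapping region in replicate 3 against replicate 2 for 1229 single-gene promoter peaks (log axes, authors' units); the share of single-gene peaks stays between 30.5 and 42.1% in every bin, and CG14100 is the point at the upper right.

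Upstream summits had a median signal of 104 (77.1 to 173) and downstream summits 88.9 (71.3 to 146). The X chromosome, of which males carry a single copy, had a median of 90.4 (73.9 to 135) over 214 peaks. The autosomes had 103 (75.9 to 173) over 1039 peaks. The quartile ranges overlap in both comparisons, and neither difference was tested.

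Each replicate's list ranks the same peaks separately. Of the 1253 peaks, 1083 (86.4%, 84.4 to 88.2%) overlapped one of the 3469 strongest regions of replicate 2 and 1024 (81.7%, 79.5 to 83.8%) one of the 3469 strongest of replicate 3. In both were 891 (71.1%, 68.5 to 73.6%). Across the 1229 peaks with a region in both lists, log2 signals had Pearson's r = 0.80 and Spearman's rho = 0.717. This correlation is across peaks that were chosen for agreement between these replicates, so it describes them and is no separate evidence.

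CG14100 led by a wide margin. It had a signal of 3277.7, rank 1 in each replicate and a summit 99 bp upstream of its only start site nearby. The next was Ugalt, which encodes a UDP-galactose transporter, on X with a signal of 1215 and its summit 28 bp upstream (ranks 8 in replicate 2 and 6 in replicate 3). CG31145 followed with 1086 at 174 bp upstream and rank 12 in each replicate. Sox14, encoding an HMG-box transcription factor induced by the steroid hormone ecdysone, had 1025 at 228 bp upstream and ranks of 14 and 15. No other single-gene promoter peak reached 1000.

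Among the remaining 16 of the 20 highest single-gene peaks, most summits were again upstream. GstE13, a glutathione transferase gene, had a signal of 768 with its summit 68 bp downstream. The prohormone convertase gene amon had 755 at 216 bp upstream, and the thiolase gene yip2 had 698 at 193 bp downstream, within an intron. Trp1, encoding a translocation protein of the endoplasmic reticulum, had 693 at 134 bp upstream of an internal start site. Rme-8 (671, 158 bp upstream) acts in endosomal transport, and Gapdh2 (645, 147 bp upstream) encodes a glycolytic enzyme. REPTOR (593, 171 bp upstream) encodes a transcription factor held in check by the growth kinase complex TORC1. The others were CG10413 (854), Hpf1 (806), CG1888 (790), CG11857 (763), Acsf2 (664), sbb (649), Drat (647), l(2)k01209 (642) and CG4497 (587). All 20 ranked 95 or better in replicate 2 and 99 or better in replicate 3.

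Most genes carried 1 such peak. Of the 1108 genes, 980 had 1 single-gene promoter peak, 115 had 2, 10 had 3, 2 had 4 and 1 had 5. The 5 belonged to Rtnl1, a reticulon gene of the endoplasmic reticulum. Their signals ran from 103 to 347, and they lay at 4 of its 7 start sites, from 138 to 487 bp upstream. Syp, encoding an RNA-binding protein, had 4 with signals from 68.6 to 466, and Svil, encoding an actin-binding protein, had 4 with signals from 70.3 to 349. Svil has 16 annotated start sites, and its 4 peaks lay upstream of 4 different ones.

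Not all of these are separate sites. Of the 128 genes with several peaks, 73 had them nearest to different start sites. In 62 genes the closest summits were under 420 bp apart, which is the width of 1050 of the 1253 peaks. Overlapping peaks of the authors' list were each counted, and 146 single-gene promoter peaks overlapped another reproducible peak. In Atpalpha, encoding the sodium pump's alpha subunit, a pair of peaks 45 and 321 bp upstream of the same start site had signals of 81.7 and 65.4. Another peak of Atpalpha, 214 bp upstream of an internal start site, had 316. The early endosome gene Rab5 had peaks with signals of 267, 248 and 59.0 at 3 of its 6 start sites.

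Genes with a single-gene promoter peak had longer spans and more start sites at the median than other genes, differences that were described and not tested. Their median annotated span was 5444 bp (2280 to 14442 bp), against 2643 bp in 1438 genes with a shared promoter peak only and 1958 bp in 10854 genes with no promoter peak. They had a median of 2 start sites and 3 transcripts. Genes with shared peaks only had 1 and 2, and genes with no promoter peak 1 and 1. The longest first intron had a median of 1127 bp in genes with a single-gene peak, 96 bp in genes with shared peaks only and 70 bp in genes with none. Coding length differed less, with medians of 1577, 1361 and 1146 bp in the same order. Spans over 20 kb were found in 18.7%, 4.38% and 6.61% in the same order. The sequence open to a single-gene summit had medians of 1015, 343.5 and 1001 bp in that order. Its part in these differences was not tested.

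The share of genes with a single-gene promoter peak was 5.03% (4.61 to 5.48%) at 1 annotated start site, 12.5% (11.3 to 13.9%) at 2 and 20.6% (17.7 to 23.8%) at 3. It was 34.1% (29.3 to 39.2%) at 4 or 5 and 50% (39.99 to 60.01%) at 6 or more. More start sites also mean more sequence in which a summit would count. Per Mb of that sequence the densities were 69.5, 123, 139, 153 and 162 peaks in the same order. Among genes with 1 start site, the density was 45.2 per Mb for spans under 2 kb, 81.0 for 2 to 5 kb, 133 for 5 to 20 kb and 133 over 20 kb. The annotation of start sites is itself uneven between genes, and its part in these densities was not tested.

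**Figure D3:**
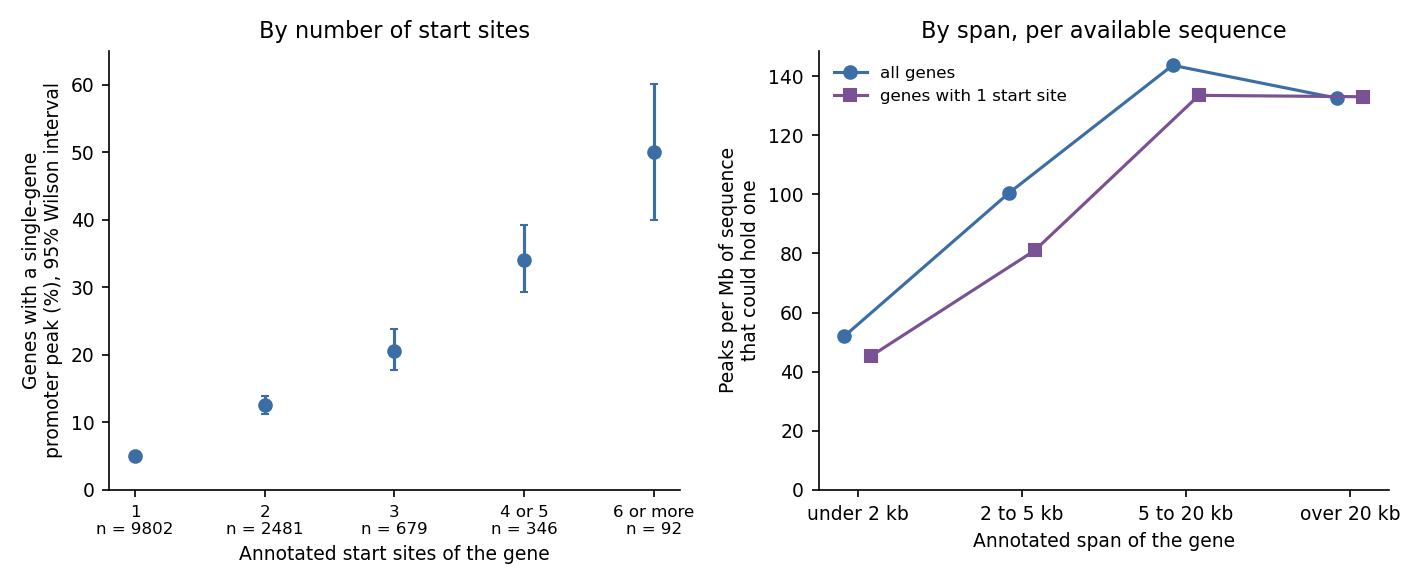
Left, share of genes with a single-gene promoter peak (%, points with 95% Wilson intervals) by the number of annotated start sites. Right, single-gene promoter peaks per Mb of sequence that could hold one, by annotated span, for all genes (circles) and for genes with 1 start site (squares); the share reaches 50% at 6 or more start sites, and the density levels off above 5 kb.

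Which kinds of genes carried single-gene promoter peaks was described with 35 gene lists, each read against the 8.27% of all 13400 genes that could hold one. Symbols that matched no gene were left out (48). A share is over the list's genes that could hold a single-gene peak, and no list was tested. The lists also differ in start sites and available sequence, which the 8.27% does not allow for. Against the mean of 97.7 peaks per Mb, homeobox factors (77.4) and phototransduction (70.5) were below and aminoacyl-tRNA synthetases (116) above, each opposite to its share. Nuclear receptors and ecdysone response genes had 125 per Mb at a median of 2 start sites, and muscle genes 121 at a median of 3. Of the 35 lists, 19 stayed on the same side of the share of all genes under each of 11 other settings, and 16 were on the other side in at least 1. Counting any promoter peak, shared or not, 2701 of 13968 protein-coding genes (19.3%) had one. With only the higher-signal 50% of the reproducible peaks, the share of all genes was 4.27%. The share was then 20% for cytoplasmic ribosomal proteins and 11.9% for insulin signalling and lipid storage, with lower interval limits of 12.5 and 5.19%. For eye development and Pax genes it was 9.09% (2.53 to 27.8%), and for glia 7.14% (1.27 to 31.5%). The eye and glia intervals hold the 4.27% of all genes, and the glia share rested on moody alone.

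Genes of the cytoplasmic ribosome had a share above the 8.27% of all genes. Of 75 cytoplasmic ribosomal protein genes, 26 (34.7%, 24.9 to 45.9%) carried a single-gene promoter peak. Their 28 peaks lay close to the start site, with a median of -27.5 bp and 8 downstream, and had a density of 582 per Mb of available sequence. With a window of 1000 bp the share of these genes was 21.4% (12.7 to 33.8%). RpL26 was the highest with a signal of 368 at 41 bp downstream (216 in replicate 2 and 150 in replicate 3). RpS3A had 272, RpL23A 268 and RpL24 239. Translation initiation and elongation factors had 8 of 52 (15.4%, 8.01 to 27.5%), all 8 peaks upstream, led by eEF1gamma (334) and eEF1alpha1 (331). These encode subunits of the factor that brings aminoacyl-tRNA to the ribosome. The interval of the translation factors holds the 8.27% of all genes. Their share was 9.62% without replicate 2, and 3.85%, against 4.27% of all genes, with the higher-signal 50% of peaks.

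Mitochondrial ribosomal protein genes carried peaks mainly at promoters shared with other genes. Only 2 of 70 (2.86%, 0.787 to 9.83%) had a single-gene promoter peak, mRpL4 (119) and mRpL49 (65.7), whereas 28 others of the list had shared promoter peaks alone. Among all 13400 genes that could hold a single-gene peak, 1438 had shared promoter peaks alone. Any promoter peak was found in 40% of the mitochondrial list, against 19.3% of all protein-coding genes. The available sequence of the mitochondrial list was 0.0306 Mb, in which the density was 65.3 per Mb. The share of mitochondrial ribosomal protein genes depended on the window, at 15.1% (8.63 to 25.002%), against 8.73% of all genes, with 200 bp, and it was 1.43% without replicate 2. Respiratory chain and ATP synthase genes had 5 of 85 (5.88%, 2.54 to 13.04%), led by blw (313), encoding the alpha subunit of ATP synthase, and ND-B22 (100.02). Their share was 2.35% (0.648 to 8.18%) without replicate 2 and 9.20%, above the 8.73% of all genes, with 200 bp. Proteasome subunit genes had 0 of 48, which allows a share of up to 6.25% (3 counts of the total). Of them 5 (10.4%) had a shared promoter peak, against 19.3% of all protein-coding genes with any promoter peak. Without replicate 3 the proteasome share was 6.25% (2.15 to 16.8%).

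Metabolic and clock genes were among the lists with higher shares. The insulin signalling and lipid storage list had 10 of 42 (23.8%, 13.5 to 38.5%). The phosphatidate phosphatase gene Lpin had a signal of 465 (251 in replicate 2 and 213 in replicate 3) and Pi3K21B, the regulatory subunit of the phosphatidylinositol 3-kinase, had 442 (267 and 187 in the same order). The insulin receptor gene InR had 212, and Thor, encoding a translation inhibitor under the control of TOR, had 115. The circadian clock list had 6 of 15 (40%, 19.8 to 64.3%). The bZIP activator gene Pdp1 had 134 at 313 bp upstream, the kinase gene dco 130 at 293 bp upstream, the repressor gene vri 127 at 136 bp upstream and the kinase gene sgg 99.8 at 214 bp upstream. The remaining 2, named after their values were seen, were the core feedback genes tim (84.0) and per (80.6). With a 200 bp window the clock share was 13.3% (3.74 to 37.9%).

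Transcription factors and signalling genes also had shares above 8.27%. The basic helix-loop-helix and bZIP factors had 12 of 57 (21.1%, 12.5 to 33.3%). They were led by the stress and unfolded protein response genes Xbp1 (327, 173 bp upstream) and Atf3 (307, 238 bp upstream), the hypoxia factor gene sima (263, 107 bp downstream) and crc (158, 287 bp upstream), the fly's ATF4. Nuclear receptors and ecdysone response genes had 6 of 32 (18.8%, 8.89 to 35.3%), led by Sox14 and followed by Eip75B (184), Hnf4 (109) and the ecdysone receptor gene EcR (103). Those of Hnf4 and EcR lay 346 and 415 bp upstream. The Notch, Wingless, Dpp, Hedgehog and EGFR signalling list had 11 of 64 (17.2%, 9.88 to 28.2%), among them shn (301), numb (267), spi (144) and Dad (107). With a window of 200 bp the share of nuclear receptors and ecdysone response genes was 6.25%, and with the 5′ end of each gene record as its start site that of the signalling list was 6.15%. Homeobox factors had 9 of 85 (10.6%, 5.67 to 18.9%), an interval that holds the background share.

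Of the eye development and Pax list, 5 of 22 (22.7%, 10.1 to 43.4%) carried a single-gene promoter peak. The eyg peak, 162 bp upstream, had a signal of 224, with 103 in replicate 2 and 122 in replicate 3. The peak of dac, a nuclear cofactor gene of retinal determination, had 112 (71.4 in replicate 2 and 43.5 in replicate 3), and its summit 496 bp upstream was almost at the limit. The Pax6 gene ey had 101 (52.0 and 49.2 in the same order) at 26 bp downstream. The toe gene itself had 92.0 (44.5 and 45.2) at 150 bp upstream. The homeobox gene so had 59.2 (35.9 and 19.4), and its region was outside the 3469 strongest of either replicate. Of the 17 others, nmo had a summit 142 bp from a start site, but of a peak shared by several genes, and the rest had none within 500 bp. The next nearest was hth, at 3777 bp.

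Among lists named after tissues or cell types, those of glia, muscle, neurons and phototransduction had shares from 5.66 to 35.7%. The accessory gland, testis and midgut lists, given below, had 0, 0 and 2.08%. Genes of these lists need not be used in that tissue alone. The glia list had 5 of 14 (35.7%, 16.3 to 61.2%), led by moody (355), a receptor gene of the blood-brain barrier, with Gli (80.8), Gs2 (67.8) and pnt (61.0) far lower. The remaining gene, named after its values were seen, was Nrg (59.7). Without replicate 3 the glia share was 14.3% (4.01 to 39.9%). Muscle and contraction had 6 of 35 (17.1%, 8.10 to 32.7%), led by Msp300 (353), the arginine kinase gene Argk1 (311), Mef2 (117) and zip (110). Neuron and synapse genes had 3 of 53 (5.66%, 1.94 to 15.4%), Csp (189), fru (130) and Nrx-1 (113), with all 3 summits downstream. Phototransduction had 3 of 33 (9.09%, 3.14 to 23.6%), namely rdgC (233), rdgB (164) and Calx (60.4). The intervals of the muscle, neuron and phototransduction lists all hold the background share of 8.27%.

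Several lists held no single-gene promoter peak, or 1. There were 0 of 119 cuticle protein genes, 0 of 54 accessory gland and seminal fluid genes and 0 of 46 testis and spermatogenesis genes. These counts allow shares of up to 2.52%, 5.56% and 6.52%, taken as 3 counts of each total. Without replicate 2 the accessory gland share was 1.85%. Chemosensory receptor and odorant-binding protein genes had 1 of 225 (0.444%, 0.0785 to 2.47%), Obp99b (85.4), and midgut digestion genes 1 of 48 (2.08%, 0.369 to 10.9%), Mal-A5 (238). Genes known only by a CG number had 304 of 5819 (5.22%, 4.68 to 5.83%). The highest peak of all is among them.

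The remaining lists had intervals that hold the background share. Toll and Imd immune genes had 7 of 44 (15.9%, 7.93 to 29.4%), led by cact (497), the inhibitor that retains the NF-kappaB factors Dorsal and Dif in the cytoplasm. Polycomb, Trithorax and chromatin remodelling genes had 8 of 60 (13.3%, 6.91 to 24.2%), with ph-p (567, 436 bp downstream) the highest. Heat shock and chaperone genes had 5 of 37 (13.5%, 5.91 to 28.0%), led by Hsp27 (346) and Hsp83 (243). Insulator and architectural protein genes had 3 of 22 (13.6%, 4.75 to 33.3%), namely pita (240), the GAGA factor gene Trl (228) and Pep (79.5), and the share was 9.09% without replicate 3. Mediator and general transcription factor genes had 6 of 50 (12%), Rab, Vps and ESCRT trafficking genes 6 of 61 (9.84%) and the vacuolar proton pump 5 of 33 (15.2%). Cytochrome P450 genes had 8 of 83 (9.64%), led by Cyp6v1 (129) and at 4.82% without replicate 3, and glycosyltransferase and glutathione transferase genes 7 of 69 (10.1%). Peroxisome and autophagy genes had 5 of 34 (14.7%), aminoacyl-tRNA synthetases 2 of 31 (6.45%), JAK/STAT signalling 1 of 14 (7.14%) and male dosage compensation 1 of 8 (12.5%), the histone kinase gene JIL-1 (173). These small lists moved when 1 replicate was left out. JAK/STAT signalling was at 21.4% without replicate 2 and 14.3% without replicate 3, male dosage compensation at 25% without replicate 2 and aminoacyl-tRNA synthetases at 3.23% without replicate 2.

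**Figure D4:**
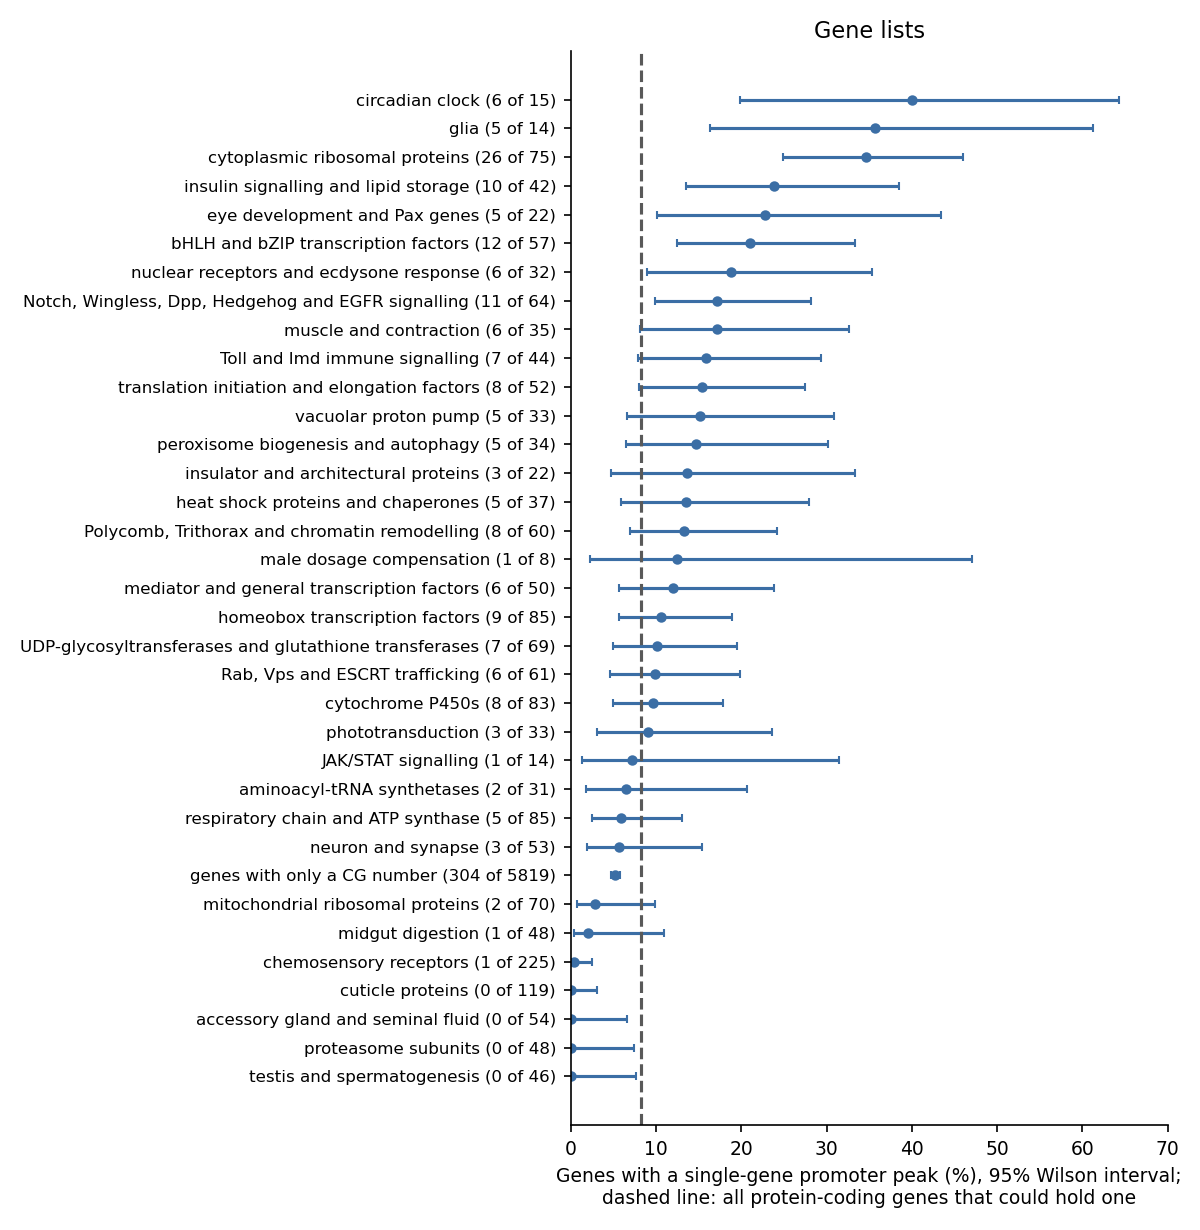
Share of the genes of each list that carried a single-gene promoter peak (%, points with 95% Wilson intervals; counts in brackets), over the genes that could hold one. The dashed line is the 8.27% of all such genes. Clock, glia and cytoplasmic ribosomal protein genes lie at 34.7 to 40%, and 4 lists lie at 0.

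Short words were searched for on both strands in the 100 bp either side of each summit. They were TATCGATA of DRE, the CGATA core, GGTCACACT of motif 1, GAGAG as the word of the GAGA factor and CAGCTG as the core promoter E-box. The initiator was searched for as TCAGT, the TATA box as TATAAA, the homeodomain core as TAATTA and the paired domain core as GTCACGC. The words ACAGTGG and also AGTGTTG were added because earlier results on these peaks had picked them out, so their shares and positions here are no separate evidence. DRE contains the CGATA core, so every DRE counts for both. The same search was made in windows of equal length at the promoters of all 13400 genes, centred 109 bp upstream of the 5′-most start site. A match describes the letters only and is not a measured binding site.

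The comparison of DRE with promoters at large depended on the width of the window. Single-gene windows followed each summit, whereas windows at all promoters were centred 109 bp upstream of the 5′-most start site. DRE words near single-gene summits had a median position of -49.5 bp from the start site (quartiles -76.5 and -8 bp). The part of this window placement in the shares was not tested. With 100 bp either side it was in 6.30% (5.09 to 7.79%) of single-gene windows, 9.02% (7.38 to 11.0%) of several-gene windows and 6.65% (6.24 to 7.08%) of all promoters. With 50 bp either side it was in 3.75% (2.83 to 4.95%) of single-gene windows, 4.46% (3.33 to 5.95%) of several-gene windows and 1.91% (1.69 to 2.16%) of all promoters. Windows away from start sites held DRE in 0.763% (0.402 to 1.44%) with 100 bp. The CGATA core was in 37.4% (34.8 to 40.1%) of single-gene windows, 47.0% (43.9 to 50.1%) of several-gene windows and 37.3% of all promoters. With 50 bp it was in 23.7% (21.4 to 26.1%), 24.9% (22.3 to 27.7%) and 18.4% (17.7 to 19.0%) in the same order. Motif 1 was in 3.19% of single-gene windows, 3.11% of several-gene windows and 2.44% of all promoters with 100 bp. The initiator was in 33.5%, 30.7% and 32.5%, and the E-box in 12.4%, 13.5% and 10.8%.

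GAGA words were more frequent in single-gene windows, at 26.4% (24.1 to 28.9%), than in several-gene windows, at 16.4% (14.2 to 18.9%), with 22.3% (21.6 to 23.04%) in all promoters. Windows away from start sites had a share close to that of single-gene windows, 27.7% (25.2 to 30.3%). With 50 bp either side GAGA words were in 13.1% (11.3 to 15.1%) of single-gene windows, 8.195% (6.62 to 10.1%) of several-gene windows and 13.7% (13.1 to 14.3%) of all promoters, so that the excess over all promoters was not seen. TATA words ran the other way, at 30.6% (28.2 to 33.3%) in single-gene windows, 42.6% (39.5 to 45.8%) in several-gene windows and 37.5% (36.7 to 38.4%) in all promoters, and windows away from start sites had 31.2% (28.6 to 33.9%). The homeodomain core is the kind of word homeodomain proteins such as toe and eyg are known to bind. It was in 15.2% (13.3 to 17.3%) of single-gene windows, 21.5% (19.0 to 24.2%) of several-gene windows and 16.1% of all promoters. With 50 bp either side it was in 7.26% (5.95 to 8.83%), 12.3% (10.4 to 14.6%) and 9.76% (9.27 to 10.3%) in the same order. The paired domain core was in 0.638%, 1.04% and 0.933% in the same order, and with 50 bp in 0.479% of single-gene windows, from 6 windows, against 0.358% of all promoters. Mean GC content was 38.7% in single-gene windows, 34.9% in several-gene windows and 38.2% in all promoters. Its part in the word shares was not tested.

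ACAGTGG was in 6.94% (5.66 to 8.49%) of single-gene windows, 4.25% (3.15 to 5.72%) of several-gene windows, 10.3% (8.65 to 12.1%) of windows away from start sites and 2.51% of all promoters. AGTGTTG was in 8.70% (7.26 to 10.4%), 11.9% (10.03 to 14.1%), 3.98% (3.01 to 5.26%) and 4.66% in the same order. Upstream summits had ACAGTGG in 7.53% (6.06 to 9.33%) and downstream summits in 4.53% (2.55 to 7.92%), and DRE in 6.94% and 3.70%. These intervals, with 100 bp either side, overlap. With 50 bp DRE was in 4.56% (3.44 to 6.03%) of upstream and 0.412% (0.0727 to 2.29%, 1 window) of downstream windows. The CGATA core was in 25.9% (23.3 to 28.7%) and 14.8% (10.9 to 19.8%) in the same order. GAGA words ran the other way, at 11.6% (9.76 to 13.7%) and 19.3% (14.9 to 24.8%). The intervals of these words were separate at 50 bp, and those of the other words overlapped. The differences were not tested.

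**Figure D5:**
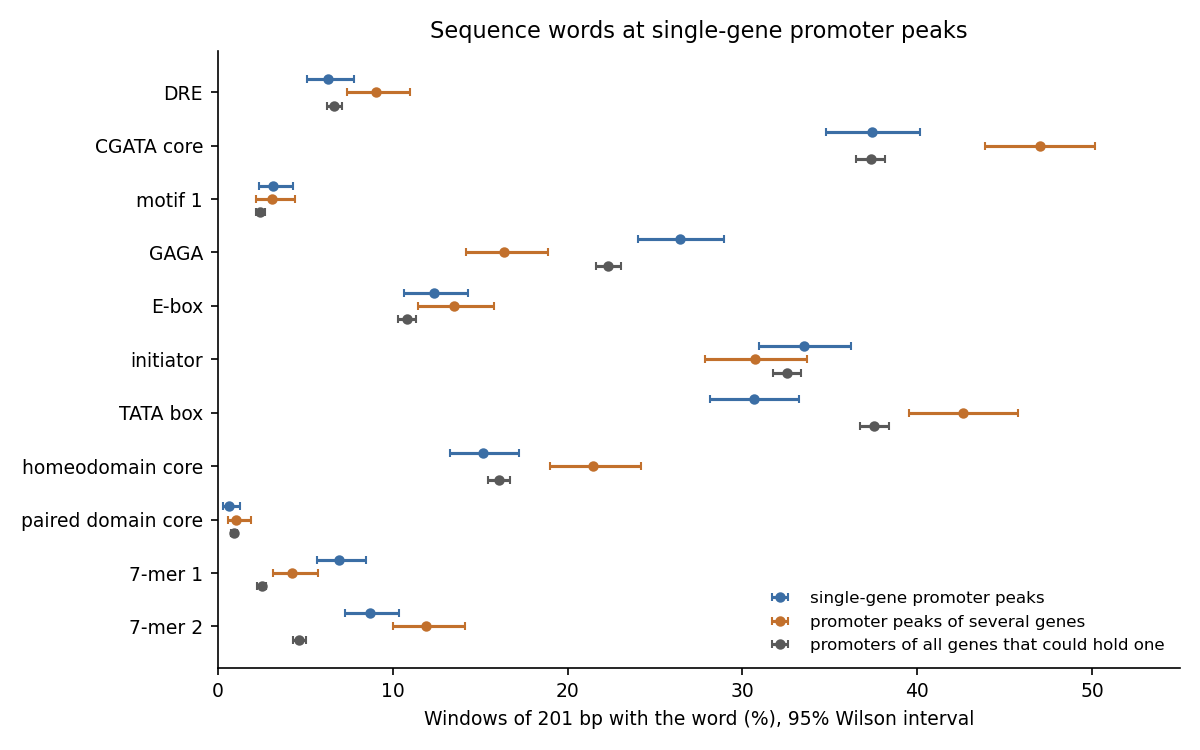
Share of windows with each searched word (%, points with 95% Wilson intervals) in 1253 single-gene promoter peaks, 964 promoter peaks of several genes and 13400 promoters; 7-mer 1 is ACAGTGG and the other 7-mer is AGTGTTG. Windows with GAGA words are more frequent, and those with TATA words less frequent, in single-gene than in several-gene peaks. The 7-mers, which earlier results on these peaks had picked out, exceed the promoter share in both kinds of peak.

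Within single-gene promoter peaks some words were denser near the summit than in flanks farther out. The density within 50 bp of the summit, divided by that at 150 to 250 bp, was 3.51 for AGTGTTG (78 words within 50 bp), 2.41 for DRE (50 words), 2.26 for motif 1 (16 words) and 1.89 for the CGATA core. It was 1.73 for ACAGTGG (41 words). Of the words within 100 bp of the summit, 41 of 95 for ACAGTGG and 16 of 42 for motif 1 were within 50 bp. Neither word was thus densest at the summit itself. AGTGTTG and ACAGTGG had been picked out on these same peaks, so their ratios are no separate evidence. The TATA box (1.10), initiator (0.978) and E-box (0.936) were near 1, and GAGA words were sparser at the summit than in the flanks (0.688). Relative to the start site, AGTGTTG had a median position of -45 bp, DRE -49.5 bp and ACAGTGG -121 bp. Motif 1, a word with a known orientation at promoters, ran in the direction of the gene in 29 of 42 cases (69.0%). Median signals were 94.1 with DRE and 101 without, and 115 with ACAGTGG and 101 without.

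Across chromosomes the peaks followed the sequence that could hold them. Chromosome 3R had 324 (25.9%, against 23.6% of the available sequence), 3L 266 (21.2%, against 19.7%), 2R 230 (18.4%, against 20.3%), X 214 (17.1%, against 17.3%) and 2L 210 (16.8%, against 18.2%). Chromosome 4 had 9 and Y had 0. Densities ran from 88.2 per Mb on 2R to 107 per Mb on 3R, leaving Y aside, and no chromosome was tested.

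The limit of 500 bp cuts through a thin tail of the distribution. Just inside it were wde (499 bp downstream, signal 289), Mkp3 (498 bp upstream, 115), Eip63F-1 (497 bp downstream, 329), dac (496 bp upstream, 112), bmm (496 bp downstream, 68.7) and CG2865 (491 bp upstream, 66.0). Just outside it were lectin-28C (501 bp upstream, 65.8), CG5973 (501 bp upstream, 207), Samuel (502 bp upstream, 85.9), Fbl6 (502 bp downstream, 340), CG31612 (503 bp downstream, 461) and CrebA (503 bp upstream, 191).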

How the data were processed

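Toe ChIP-seq was read from 4 deposited peak lists on dm6: the reproducible peaks, the pooled regions and the regions of replicates 2 and 3. Per the files' notes, the authors called regions against a control and derived the reproducible peaks by the irreproducible discovery rate. Aligner, peak caller and versions were not given in the sources used here. Each region's signal is the authors' deposited value, on an unstated scale. Column 9 of the deposited lists has no header and was taken as −log10 of q, the q-value, used only for counts under 0.05. Depth is unknown, since no read counts are given, and intervals reflect numbers of peaks, genes or windows alone.

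Transcript starts were those of Ensembl release 115 (BDGP6, assembly version 6.54), leaving out 5889 records of transposable elements. A gene could hold a single-gene peak where at least 1 bp lay within 500 bp of its start sites and of no other gene's. Shares have 95% Wilson intervals. Tables were made with Python 3.11.15, numpy 2.4.6 and pandas 2.3.3, and the code was checked on simulated data. With 1 group there was no comparison of conditions and no test. The rule for named genes took the 20 highest peaks, the 4 highest genes of each list, all of the eye list, the 10 genes with most peaks and the peaks nearest to the 500 bp limit. The members, gene lists and words were chosen with earlier results of these data known. The lists on dm3 were not used here.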

Additional observations from a re-analysis of the deposited data

How the results depend on the processing

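The 1253 single-gene promoter peaks became 613 when only the higher-signal part of the list (its stronger 50%) was kept. Their median signal was then 170, the median position -123 bp, the downstream share 15.7% and the share of genes with a peak 4.27%. With a window of 1000 bp the median was -125.5 bp and the downstream share 25.2%, and with 200 bp the median was -78 bp. With the 5′ end of the gene record as its only start site, the median was -95 bp, the downstream share 22.8% and the gene share 6.92%. The gene share was 7.43% with q-values under 0.05, and 8.88% when only other protein-coding genes barred a peak. With peaks taken from 1 replicate's strongest regions, the median position ran from -108 to -101 bp and the median signal from 47.2 to 62.5, on lists scaled separately. Over the replicates' whole lists, 99.1% of the peaks were found in replicate 2 and 98.96% in replicate 3. Requiring at least 50% of the peak to overlap gave 79.1% in replicate 3. Counting transposable elements as genes, chosen after seeing the data, left 1228 peaks. Of the 35 gene lists, 16 were on the other side of the share of all genes in at least 1 of 11 other settings. With 200 bp these were mitochondrial ribosomal proteins, respiratory chain, aminoacyl-tRNA synthetases, P450s, glutathione transferases, homeobox factors, nuclear receptors, JAK/STAT and phototransduction. With the stronger 50% they were translation factors, P450s, homeobox factors, Toll and Imd, neuron and synapse, and peroxisome. With 1000 bp they were heat shock, Rab and Vps, JAK/STAT and peroxisome. With the gene record they were respiratory chain, Rab and Vps, nuclear receptors, Notch and related signalling, JAK/STAT and phototransduction. P450s, homeobox factors and phototransduction crossed with q-values under 0.05. Homeobox factors and JAK/STAT crossed without replicate 2, and P450s and JAK/STAT without replicate 3. With 50 bp either side of the summit, 3 of the 11 words were on the other side of the share of all promoters: DRE, GAGA and the paired domain core. Windows at all promoters had a fixed place and single-gene windows followed the summit, and the part of this in the change was not tested. No paired analysis was possible because there is 1 group. Replicate depth, the unknown signal scale and uneven start site annotation limit the values.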
